A study of Mus musculus with 4 samples.

Results

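The cytosolic ribosomal proteins were followed through mouse small intestinal crypt cells with and without an epithelial deletion of Slc7a5. Their genes were chosen by name: every symbol made of Rpl or Rps and a number, together with Rplp0, Rplp1, Rplp2 and Rpsa, and without symbols ending in -ps or the Rps6k kinases. The rule took 87 of the 27998 genes in the count tables. Of these, 53 carried names of the large subunit and 33 names of the small subunit. The last, Rps19bp1, matched by its letters only: it encodes a protein that binds a small subunit protein, and it was kept out of all sums. The study sorted live epithelial cells, positive for EpCAM and negative for CD45, from crypts of 8-week-old mice and sequenced them on the 10x Genomics 3′ platform in 4 libraries. Both libraries labelled slc7a5 fl/fl (fl/fl 1 and fl/fl 2) came from mice with floxed Slc7a5 alleles, and the labels name no Cre for them. Both libraries labelled slc7a5 IEC-KO (IEC-KO 1 and IEC-KO 2) came from mice with the same floxed alleles and a Cre driven by the Villin promoter, which is active throughout the intestinal epithelium. The floxed alleles were thus shared by all libraries, and the paper describes the controls as littermates matched for sex and age. The 26498 cells were put into classes by the share of their unique molecular identifiers (UMIs, each marking 1 captured mRNA molecule) that fell on the 13 symbols starting with Defa, the alpha-defensins stored in Paneth cell granules. Cells with 30% or more were called Paneth cells, cells under 20% other cells, and the 10.3% of cells in between entered neither class.

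The ribosome is built from a small subunit, which holds the mRNA and reads its codons, and a large subunit, which joins the amino acids and carries the exit tunnel. Each subunit contains ribosomal RNA and a fixed set of proteins, most of them in a single copy, so their mRNAs are usually made in similar proportion. These mRNAs start with a run of pyrimidines, the terminal oligopyrimidine (TOP) motif, through which mTORC1 controls their translation and, with the RNA-binding protein LARP1, their stability. SLC7A5 is a transporter that brings large neutral amino acids into the cell, and amino acid supply is among the inputs of mTORC1.

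The libraries held 26498 barcodes and between 87922473 and 127094508 UMIs each. The lowest UMI number of any barcode was 8909 and 9670 in fl/fl and 3843 and 5858 in IEC-KO, so shallow cells were kept only in IEC-KO. At most 132 barcodes were shared by any pair of libraries. The Paneth class held 2020 and 1950 cells in fl/fl and 2019 and 2336 in IEC-KO, and the other class 1493 and 1178 in fl/fl and 6680 and 6090 in IEC-KO. Beside the defensins, 11 of 13 Paneth markers were higher in the Paneth class than in the other class in every library, the exceptions being Mptx1 and Nupr1. Slc7a5 itself had 91 and 84 UMIs in fl/fl and 128 and 252 UMIs in IEC-KO in Paneth cells, but 3′ reads lie outside the floxed first exon and do not check the deletion. Xist, which is transcribed from the inactive X, took 236 and 271 per 1000000 UMIs in fl/fl and 509.5 and 575 per 1000000 UMIs in IEC-KO in other cells. The 4 Y-linked genes Ddx3y, Eif2s3y, Kdm5d and Uty took 38.7 and 40.7 per 1000000 UMIs in fl/fl and 13.8 and 14.0 per 1000000 UMIs in IEC-KO. In Paneth cells Xist took 41.8 and 45.8 per 1000000 UMIs in fl/fl and 202 and 238 per 1000000 UMIs in IEC-KO. The Y-linked genes there took 8.77 and 8.62 per 1000000 UMIs in fl/fl and 4.68 and 4.17 per 1000000 UMIs in IEC-KO. UMIs of both kinds were thus present in every library, in proportions that differed with genotype, and their part in the results below was not tested. Libraries of the same genotype differed by more than sampling noise (chi-square per degree of freedom 3.98 to 79.5). The labels do not say how the mice were divided among libraries, so p-values measure the spread between these libraries, which may be technical.

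Ribosomal protein genes took a larger share of UMIs in IEC-KO than in fl/fl, most of all in Paneth cells. In Paneth cells their summed share was 4.02 and 3.90% in fl/fl and 10.7 and 10.7% in IEC-KO. The genotypes did not overlap, and the means were 3.96% ± 0.0853 and 10.7% ± 0.0178 (SD, n = 2 libraries). Defensins alone took 41.2 and 44.0% in fl/fl and 36.8 and 37.2% in IEC-KO of all UMIs in these cells. Of the UMIs outside the defensin genes, ribosomal proteins made up 6.83 and 6.96% in fl/fl and 16.9 and 17.1% in IEC-KO. The 13 other Paneth markers, among them the secreted Lyz1 and Itln1, took 4896 and 5082 of every 10000 of these same UMIs in fl/fl and 3378 and 3098 in IEC-KO, so a large part of this denominator also moved with genotype. With those markers left out as well, an alternative added after the data were seen, the ribosomal protein share was 13.4 and 14.1% in fl/fl and 25.6 and 24.7% in IEC-KO, again without overlap. Single Paneth cells varied around these sums, with a 5th to 95th percentile of 3.38% to 6.06% and 3.25% to 6.40% in fl/fl, against 7.26% to 16.3% and 7.79% to 15.9% in IEC-KO. In other cells the share was 19.3 and 19.4% in fl/fl and 23.3 and 23.1% in IEC-KO, again with no overlap but a smaller gap. Cells with 20% to under 30% defensin UMIs, which belonged to neither class, stood between the classes in both genotypes, with 10.8 and 12.1% in fl/fl and 16.8 and 17.0% in IEC-KO. With 2 libraries against 2, no exact permutation test can pass a threshold of 0.05, and the shares are given as values.

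The share in the Paneth class stood in contrast to the number of ribosomal protein UMIs per cell. A Paneth cell held on average 1879 and 2065 ribosomal protein UMIs in fl/fl and 1633 and 2456 ribosomal protein UMIs in IEC-KO, and here the genotypes overlapped. UMIs of all other genes were 44869 and 50912 per Paneth cell in fl/fl and 13619 and 20429.7 per Paneth cell in IEC-KO, with every IEC-KO value below every fl/fl value. In other cells the mean number of ribosomal protein UMIs per cell was 2225 and 2415 in fl/fl and 1511 and 2109 in IEC-KO, lower in IEC-KO, as was the number of all remaining UMIs. UMIs per cell depend on how deeply a library was sequenced and on its lower UMI limit as well as on the RNA in a cell, which cannot be told apart here. All comparisons below are therefore relative. Shares are parts of the UMIs counted, and genes were tested after TMM scaling unless another scale is named. A member called higher after TMM scaling need not take a larger part of all UMIs, as the comparison of the classes within a genotype shows below.

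The gap between genotypes was present at matched defensin share and at matched UMI number. Among cells with 30% to 40% defensin UMIs, ribosomal proteins took 4.39 and 5.20% in fl/fl and 11.4 and 11.4% in IEC-KO. Among those with 40% to 50% they took 3.85 and 3.74% in fl/fl and 8.58 and 8.69% in IEC-KO. At the low end, cells with under 5% defensin UMIs had 20.0 and 20.4% in fl/fl and 23.4 and 23.2% in IEC-KO. No band of defensin share with cells in all libraries overlapped between genotypes. Paneth cells with 20000 to 30000 UMIs had 4.39 and 4.79% in fl/fl and 9.53 and 10.6% in IEC-KO, and those with 30000 to 50000 UMIs 4.06 and 4.00% in fl/fl and 9.11 and 9.53% in IEC-KO. Other cells with 10000 to 20000 UMIs had 19.5 and 19.4% in fl/fl and 23.1 and 23.2% in IEC-KO. The single overlap was among other cells with 20000 to 30000 UMIs, with 22.3 and 20.6% in fl/fl and 21.6 and 21.9% in IEC-KO, a band that held between 18 and 93 cells per library.

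Within the other class the share varied by cluster as well as by genotype. The cells were clustered without ribosomal protein and defensin genes. This first clustering put 654 and 497 fl/fl cells, but 3 and 4 IEC-KO cells, into a cluster named Paneth-like from 6 of 13 Paneth markers, which also counted 8 of 26 goblet markers. It left 10 and 4 goblet-like cells in fl/fl and 3624 and 3218 in IEC-KO. A second clustering, chosen after that was seen, also left out the genes of the study's lists. It gave 650 and 488 goblet-like cells in fl/fl and 3503 and 3130 in IEC-KO, and 0 and 1 Paneth-like cells in fl/fl and 629 and 476 in IEC-KO. Which fl/fl cells of the other class count as goblet-like or Paneth-like thus depended on the clustering. In this second clustering 10 clusters held 30 or more cells in each library, and in all 10 both IEC-KO values exceeded both fl/fl values. Of these 10, the cluster led by Amica1, Ifitm3 and Stmn1 had the highest share in every library. It took 27.9 and 27.5% in fl/fl and 29.6 and 28.6% in IEC-KO. This cluster was called stem-like from 7 of 14 stem markers, but it also counted 24 of 26 transit-amplifying (TA) or cycling markers. In the first clustering a cluster also led by Amica1 and Ifitm3 was named TA-like, so the stem-like name is uncertain. The TA-like cluster led by Ube2c, a mitotic ubiquitin enzyme, had 21.0 and 20.6% in fl/fl and 24.4 and 24.0% in IEC-KO. The goblet-like cluster led by Gm15292 had 15.9 and 15.9% in fl/fl and 19.4 and 20.0% in IEC-KO, and the goblet-like cluster led by Mt3 had 20.8 and 19.3% in fl/fl and 24.1 and 23.9% in IEC-KO. The enterocyte-like cluster led by Reg1 had 16.0 and 15.6% in fl/fl and 17.5 and 17.7% in IEC-KO. Most fl/fl goblet-like cells (443 and 332) lay in the Gm15292 cluster and most IEC-KO goblet-like cells in other clusters, so the pooled goblet-like class compares partly different clusters. The Gm15292 cluster counted 9 of 26 goblet and 4 of 13 Paneth markers, and the goblet-like cluster led by Rnase1 counted 3 goblet and 7 Paneth markers.

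**Figure D1:**
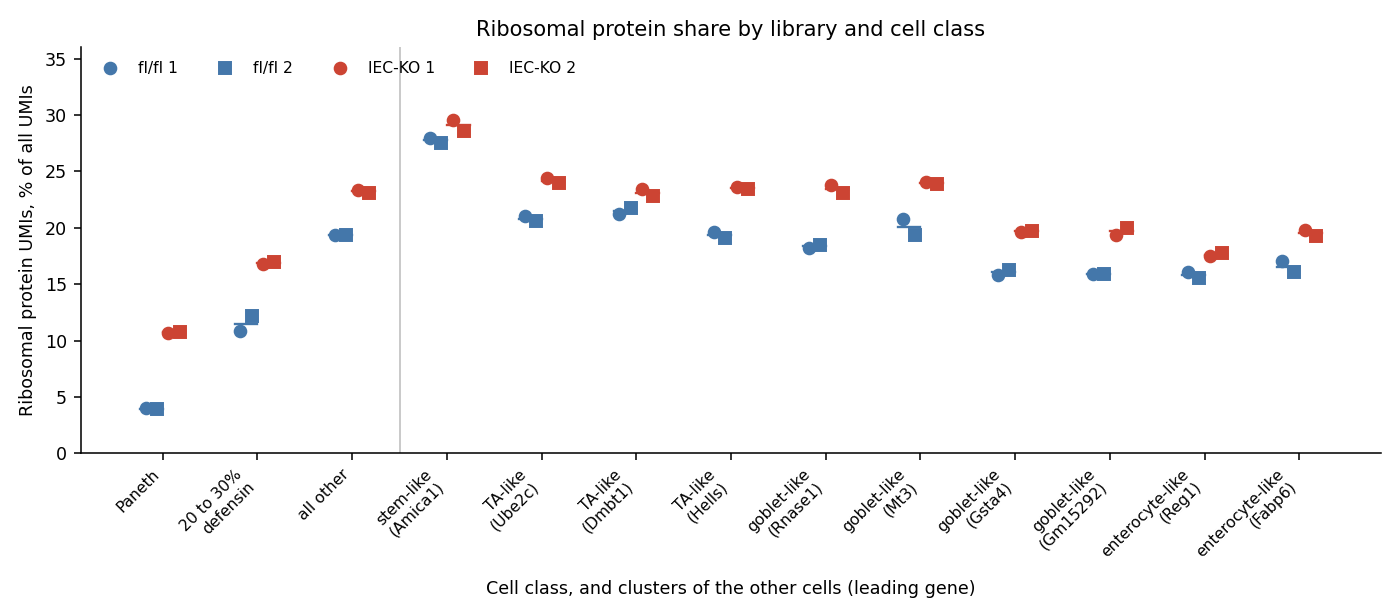
Share of all UMIs that fell on the 86 ribosomal protein genes, in percent, for each library (4 point styles) in the Paneth, intermediate and other classes and in the clusters of other cells with 30 or more cells in every library. Both IEC-KO points lie above both fl/fl points in every column, with the widest gap in Paneth cells and the narrowest in the stem-like cluster.

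In Paneth cells almost every ribosomal protein mRNA was higher in IEC-KO, in both subunits. Of the 87 members 84 had enough UMIs to be tested, and 83 passed at an adjusted p of 0.05, all upward. The remaining Rpl3l, Rpl10l and Rpl39l had at most 2 UMIs in any library and class. Over all 12492 genes tested in Paneth cells, 20.2% were higher and 19.8% lower in IEC-KO. The 50 large subunit members tested gave 49 rises with a median log2 fold change of 0.81. The 33 small subunit members gave 33 rises with a median of 0.86. The median over all genes tested was -0.00023. Scaling by library size alone moved the median of all genes to 0.62, with 70.4% of all genes higher and 3.63% lower. On that scale all 84 members rose, with subunit medians of 1.43 and 1.47. In 83 of 84 members both IEC-KO libraries were above both fl/fl libraries, as in 34.5% of all genes. Markers of other cell types moved along with genotype in the same cells, and their part in these counts was not tested: of the 13 Paneth markers outside the defensins 7 fell and 5 rose (median -0.61), enterocyte markers fell in 24 of 26 and TA markers in 22 of 26, and goblet markers rose in 11 and fell in 7 of 26. Summed, the enterocyte markers took 90.9 and 89.9 in fl/fl and 111 and 103 in IEC-KO of 10000 UMIs outside the defensins, and the TA markers 9.03 and 9.09 in fl/fl and 10.1 and 10.4 in IEC-KO. These sums were higher in IEC-KO although most single markers were lower after TMM scaling. The goblet markers took 789.8 and 748 in fl/fl and 864 and 951 in IEC-KO of 10000. The 13 immune markers summed to 0.645 and 0.525 in fl/fl and 0.259 and 0.208 in IEC-KO of 10000. Of the 3 immune markers with enough UMIs to be tested 2 were lower in IEC-KO, while Cd3e, Cd3g, Cd8a and Gzmb were at 0.

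The largest rises came from both subunits. Rpl12 (ENSMUSG00000038900, chromosome 2, 32961559 to 32965345, plus strand) encodes a protein at the base of the large subunit stalk and had 332 and 336 CPM in fl/fl and 885 and 749.8 CPM in IEC-KO, where CPM are counts per 1000000 UMIs after TMM scaling. Its log2 fold change was 1.29 (SE 0.093, edgeR adjusted p = 3.57e-10), the highest of all members. Rps24 (ENSMUSG00000025290, chromosome 14, 24487125 to 24496959, plus strand), a small subunit protein mutated in some patients with Diamond-Blackfan anaemia, had 499 and 514 CPM in fl/fl and 1314 and 1153 CPM in IEC-KO, a difference of 1.28 (SE 0.095, edgeR adjusted p = 5.67e-10). Both IEC-KO libraries exceeded both fl/fl libraries by more than the gap within either genotype for both genes. Rpl30 had 282 and 288 CPM in fl/fl and 633 and 604 CPM in IEC-KO and Rpl17 468 and 507 CPM in fl/fl and 1098 and 959.7 CPM in IEC-KO, with differences of 1.12 (SE 0.083, edgeR adjusted p = 5.34e-10) and 1.08 (SE 0.095, edgeR adjusted p = 7.81e-09). Among the smallest changes were those of Rpl7l1, Rps2, Rps27l, Rpl11, Rpl36al and Rpl3, of which all but Rpl7l1 still rose.

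**Figure D2:**
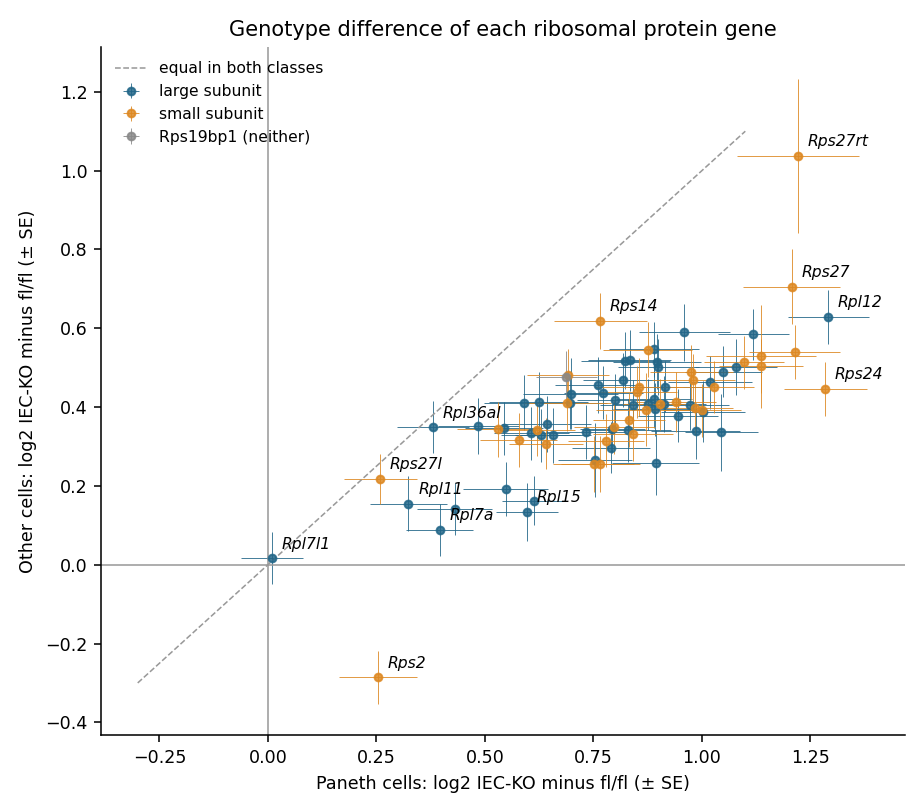
Log2 fold change (IEC-KO over fl/fl) of each ribosomal protein gene in Paneth cells (horizontal) against that in other cells (vertical), with large and small subunit members in different colours. All 84 points lie to the right of 0 on the Paneth axis. Rps2 stands below 0 on the other-cell axis, and Rpl7l1 lies near 0 on both.

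The same direction held outside the Paneth class, with a smaller median. In other cells 77 of 84 members were higher and 1, Rps2, was lower in IEC-KO, against 17.0% higher and 16.7% lower of all 12377 genes. The medians were 0.40 for the large and 0.41 for the small subunit. In 81 of 84 members both IEC-KO libraries were above both fl/fl libraries, as in 33.5% of all genes. The 6 members that did not pass were Rpl3, Rpl7a, Rpl7l1, Rpl11, Rpl15 and Rpl22l1, and all 6 belong to the large subunit. Rpl3, which lies near the peptidyl transferase centre, had 1868 and 1885 CPM in fl/fl and 2129.9 and 2011 CPM in IEC-KO, a difference of 0.14 (SE 0.066, edgeR adjusted p = 0.105). Scaled by library size only, 66 members rose and the median of all genes moved to -0.15, with 9.47% of genes higher and 30.6% lower. The other class mixed cell types in different proportions: TA markers fell in 26 of 26 and summed to 38.3 and 38.7 in fl/fl and 23.2 and 22.9 in IEC-KO of 10000 UMIs outside the defensins. Goblet markers rose in 18 of 26, enteroendocrine markers rose in 12 of 17 and enterocyte markers fell in 24 of 26, and the part of these shifts in the members' changes was not tested in the pooled class.

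Split by type, the rise was called for most members in goblet-like cells and for few in TA-like and enterocyte-like cells. Goblet cells secrete mucus. The goblet-like class of the first clustering included a cluster led by Rnase1 with 3 of 26 goblet and 7 of 13 Paneth markers. In this class 53 of 84 members were higher and none lower, against 1.39% and 0.365% of 10404 genes, with medians of 0.75 and 0.79. The median over all genes tested in this class was itself 0.55, so these medians cannot be set beside those of other cells. That class held 10 and 4 fl/fl cells, and the count was 55, 71, 0 and 0 without fl/fl 1, fl/fl 2, IEC-KO 1 and IEC-KO 2. It was 2 with scaling by library size only and 8 with the replicate number as a block. In the second clustering 75 members were higher and none lower, against 8.97% and 8.71% of 10980 genes, with medians of 0.39 and 0.44. Markers moved with genotype in that class too, and their part in the count was not tested. Enterocyte markers fell in 15 of 24 and summed to 162 and 173 in fl/fl and 80.8 and 84.8 in IEC-KO of 10000 UMIs outside the defensins. Paneth markers fell in 7 and rose in 5 of 13, with sums of 585 and 596 in fl/fl and 430 and 462 in IEC-KO, and goblet markers fell in 9 and rose in 3 of 26. Goblet-like values given below are of the second clustering unless the first is named. In TA-like cells 26 members were higher and 1 was lower, against 4.09% and 2.70% of 10549 genes. The TA-like and enterocyte-like classes are of the first clustering. There the TA-like class joined clusters led by Amica1 and Hells, with cells of all libraries, to clusters of mainly 1 genotype. The cluster led by Ube2c held 2 and 4 cells in fl/fl and 462 and 456 in IEC-KO. The cluster led by Hist1h2ap held 258 and 193 in fl/fl and 0 and 4 in IEC-KO. The class thus compares partly different clusters. The medians in TA-like cells were 0.17 and 0.18, and 80 of 84 fold changes were positive. This count of 26 rested on single libraries: it was 2 without fl/fl 1, 1 without fl/fl 2, 49 without IEC-KO 1 and 55 without IEC-KO 2, and 4 with scaling by library size only. In enterocyte-like cells a single member, Rpl30, was higher, against 1.26% and 0.562% of 8365 genes. That count was 0, 1, 6 and 0 without each library in the same order. The medians in enterocyte-like cells were 0.18 for both subunits, and 81 of 84 fold changes were positive. The differences between these types were not tested against each other. The TA-like sums rested on 398 to 1066 cells per library and the enterocyte-like sums on 150 to 441.

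Whether the genotype difference itself differed between the classes was tested with both sums of each library in 1 model. Library was a block in that model, so its p-values measure how the difference between the classes varied among libraries of a genotype. They do not measure the spread of either class between libraries. For 79 of 84 members the rise was larger in Paneth than in other cells and for none smaller, while 11.0% and 11.3% of all 13039 genes gave such calls. The median of this difference was 0.40 on the log2 scale for the large subunit and 0.49 for the small subunit. Rps24 had the largest, 0.84 (SE 0.061, edgeR adjusted p = 4.29e-27), followed by Rpl6l with 0.71 (SE 0.068, edgeR adjusted p = 4.98e-18), and Rpl12 was also high, with 0.67 (SE 0.060, edgeR adjusted p = 1.14e-19). Rpl6l is annotated as a processed pseudogene, and its counts are uncertain since they may hold reads of its parent gene. The 5 members without a call were Rpl7l1, Rpl8, Rpl36al, Rps14 and Rps27l. For Rpl36al the difference was 0.040 (SE 0.060, edgeR adjusted p = 0.698) and for Rps27l it was 0.046 (SE 0.060, edgeR adjusted p = 0.650), while both rose in each class on its own. By library size only, all 84 members were called, as were 73.2% of all genes upward and 0.514% downward, with a median of 0.75 over all genes.

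Within fl/fl most members were lower in Paneth than in other cells after TMM scaling, and within IEC-KO they were split. In fl/fl 73 of 84 members were lower and 3 higher in Paneth than in other cells, against 30.7% lower and 27.7% higher of all genes. The subunit medians were -0.39 and -0.47. The 3 exceptions were Rps14, Rps15 and Rps27l, the last with 0.46 (SE 0.042, edgeR adjusted p = 7.62e-20). In IEC-KO 18 members were lower and 25 higher, against 25.5% and 24.7%, with medians of 0.0032 and 0.032. Rpl22l1 was the lowest of the members in IEC-KO Paneth cells at -0.40 and Rps27l the highest at 0.50. The classes were split by defensin UMIs, and with scaling by library size only all 84 members were lower in Paneth cells in both genotypes, as were 92.5% of all genes in fl/fl and 90.4% in IEC-KO.

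The subunits rose nearly together, with a shift toward the small subunit that was small beside the common rise. In Paneth cells the UMIs of large subunit genes exceeded those of small subunit genes by a ratio of 1.416 and 1.400 in fl/fl and 1.324 and 1.337 in IEC-KO. The mean ratio fell from 1.41 ± 0.011 to 1.33 ± 0.0091 (SD, n = 2), and the genotypes did not overlap. In other cells the ratio was 1.388 and 1.385 in fl/fl and 1.359 and 1.367 in IEC-KO, also lower in both IEC-KO libraries. In goblet-like cells it was 1.441 and 1.440 in fl/fl and 1.381 and 1.386 in IEC-KO, and in enterocyte-like cells 1.348 and 1.339 in fl/fl and 1.325 and 1.327 in IEC-KO. Of the 5 classes, TA-like cells alone had overlapping genotypes with all members counted, at 1.359 and 1.361 in fl/fl and 1.348 and 1.363 in IEC-KO. A ratio of summed UMIs is weighted to the genes with most UMIs, and the gene that lost most of the ribosomal protein UMIs in Paneth cells was Rpl41, by 0.68 percentage points. Without Rpl41, which encodes the shortest ribosomal protein, the ratio was 1.287 and 1.266 in fl/fl and 1.221 and 1.217 in IEC-KO in Paneth cells and 1.272 and 1.264 in fl/fl and 1.251 and 1.241 in IEC-KO in other cells. In TA-like cells it was then 1.254 and 1.250 in fl/fl and 1.242 and 1.239 in IEC-KO, so without Rpl41 the genotypes did not overlap there or in the other 4 classes. Leaving out Rpl41 was chosen after the data were seen, and in TA-like cells Rpl41 had gained 0.31 percentage points of the ribosomal protein UMIs in IEC-KO. Among small subunit genes Rps27 gained 0.48 and Rps24 0.39 percentage points of the ribosomal protein UMIs in Paneth cells, while Rps2 and Rps27l changed by -0.32 and -0.31. Unweighted, the small subunit median log2 fold change exceeded that of the large subunit by 0.046 in Paneth cells. That gap was 0.018 without fl/fl 1 and 0.0052 without IEC-KO 1, and it was 0.0096 in other cells, where it changed sign to -0.0073 without IEC-KO 1.

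**Figure D3:**
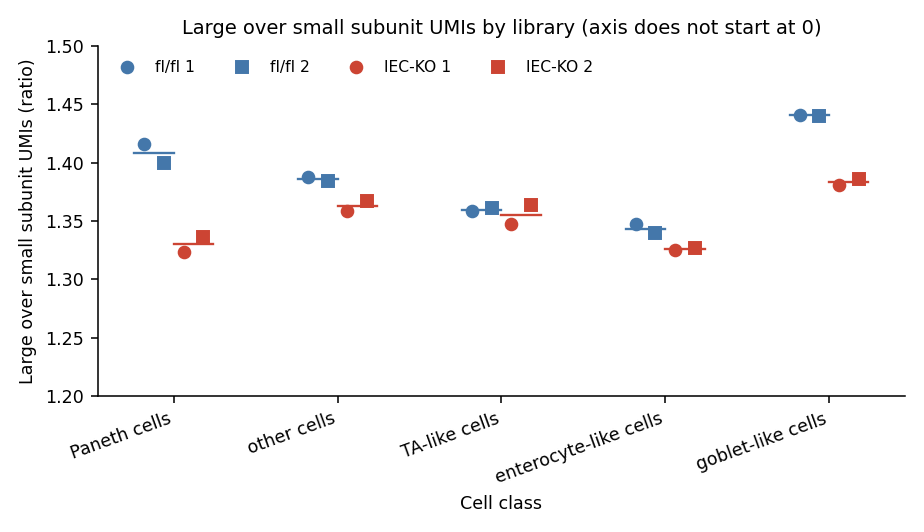
Ratio of large to small subunit UMIs in each library (points) by cell class; the axis does not start at 0. IEC-KO libraries lie below fl/fl libraries in Paneth, other, goblet-like and enterocyte-like cells, and the points of TA-like cells overlap.

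To find single genes that left the common shift, each gene was tested with the summed ribosomal protein UMIs as the library size, so that a value of 0 means that it moved as the sum did. In Paneth cells 36 of 84 members departed from the sum: 16 were above it and 20 below. Over all 12492 genes the background was 2.55% higher and 83.4% lower, since most genes did not share the rise. By subunit, 6 large and 10 small subunit members lay above, and 14 large and 6 small subunit members below. In other cells 6 members were above and 11 below, against 4.03% and 61.8% of genes. Members above in both classes were Rpl12, Rpl30, Rps27 and Rps27rt, which is 25% of the Paneth list and 66.7% of the other-cell list. Members below in both were Rpl3, Rpl7a, Rpl7l1, Rpl11, Rpl15, Rpl22l1, Rplp0, Rps2 and Rps27l, or 45% and 81.8%. In no case was a member above in 1 class and below in the other. Without fl/fl 1, fl/fl 2, IEC-KO 1 and IEC-KO 2 in turn, the number below in Paneth cells was 11, 14, 20 and 23. In other cells the number above was 2, 2, 19 and 20 and the number below 7, 8, 26 and 26 in the same order. Calls in other cells therefore depended on which libraries were compared. TA-like cells gave 1 member above, Rps27rt, and 4 below, Rps2, Rpl3, Rpl15 and Rplp0, against 1.99% and 17.2% of genes. Enterocyte-like cells gave 0 above and Rps2 below, against 0.777% and 2.99%. Goblet-like cells gave 5 above, among them Rpl12, Rpl32, Rps14 and Rps18, and 10 below, against 2.55% and 49.2%. The 10 included Rps2, Rpl7l1, Rps27l, Rpl11 and Rpl36al. With the first clustering, goblet-like cells gave 0 above and 1 below, Rps2, against 0.163% and 1.53%.

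Rps2 was below the common shift in Paneth, other, TA-like, enterocyte-like and goblet-like cells. It encodes a small subunit protein near the mRNA entry channel (ENSMUSG00000044533, chromosome 17, 24718116 to 24721929, plus strand). In Paneth cells it had 451 and 514 CPM in fl/fl and 593 and 557 CPM in IEC-KO, higher in both IEC-KO libraries, with a rise of 0.25 (SE 0.089, edgeR adjusted p = 0.0274) that left it below the sum at -0.57 (SE 0.076, edgeR adjusted p = 1.72e-06). In other cells it had 2268 and 2473 CPM in fl/fl and 1919 and 1970.2 CPM in IEC-KO, and both IEC-KO values were under both fl/fl values. The difference there was -0.29 (SE 0.068, edgeR adjusted p = 0.00277), and against the sum -0.70 (SE 0.060, edgeR adjusted p = 8.57e-07). Against the sum it was -0.58 (SE 0.072, edgeR adjusted p = 4.34e-07) in TA-like, -0.52 (SE 0.11, edgeR adjusted p = 0.00196) in enterocyte-like and -0.53 (SE 0.060, edgeR adjusted p = 1.41e-05) in goblet-like cells. Leaving out single libraries gave values against the sum of -0.63 to -0.49 in Paneth and -0.76 to -0.64 in other cells. The fall of Rps2 in other cells was not called without fl/fl 2.

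For Rpl7l1 no change was called in either class. Its protein resembles that of Rpl7 and takes part in assembling the large subunit (ENSMUSG00000063888, chromosome 17, 46773907 to 46782672, minus strand). It had 18.6 and 17.7 CPM in fl/fl and 18.8 and 17.8 CPM in IEC-KO in Paneth cells, with overlapping genotypes and a difference of 0.0087 (SE 0.071, edgeR adjusted p = 0.938). In other cells it had 54.3 and 51.6 CPM in fl/fl and 54.7 and 52.5 CPM in IEC-KO, a difference of 0.016 (SE 0.066, edgeR adjusted p = 0.879). Against the sum the values were -0.81 (SE 0.075, edgeR adjusted p = 1.39e-08) and -0.40 (SE 0.061, edgeR adjusted p = 1.05e-04). Rpl11 (ENSMUSG00000059291, chromosome 4, 136028265 to 136053428, minus strand), which together with Rpl5 and a small ribosomal RNA can bind the p53 regulator Mdm2, was the next lowest of the large subunit genes. It had 493 and 509.8 CPM in fl/fl and 665 and 590.0 CPM in IEC-KO in Paneth cells, a rise of 0.32 (SE 0.088, edgeR adjusted p = 0.00553), and was below the sum at -0.50 (SE 0.075, edgeR adjusted p = 7.00e-06). Its partner Rpl5 had 197 and 202 CPM in fl/fl and 363 and 351 CPM in IEC-KO, a rise of 0.84 (SE 0.077, edgeR adjusted p = 1.36e-08), and was not called against the sum, at 0.022 (SE 0.068, edgeR adjusted p = 0.764). Rpl3 rose from 464 to 626 CPM on average and was below the sum at -0.39 (SE 0.073, edgeR adjusted p = 7.98e-05). Among genes picked for their values after these were seen, Rpl7a lay below the sum at -0.43 (SE 0.069, edgeR adjusted p = 1.44e-05) in Paneth and -0.33 (SE 0.057, edgeR adjusted p = 2.82e-04) in other cells.

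Above the sum in Paneth cells, Rpl12 led with 0.47 (SE 0.079, edgeR adjusted p = 2.27e-05), followed by Rps24 with 0.46 (SE 0.078, edgeR adjusted p = 2.57e-05). In other cells Rpl12 had 1136 and 1127 CPM in fl/fl and 1846 and 1653 CPM in IEC-KO and was again above the sum, at 0.22 (SE 0.060, edgeR adjusted p = 0.00697). Rps24 was not: it had 2328 and 2376 CPM in fl/fl and 3335 and 3076 CPM in IEC-KO and a value of 0.033 (SE 0.057, edgeR adjusted p = 0.628). Rps6 (ENSMUSG00000028495, chromosome 4, 86854660 to 86857412, minus strand), the small subunit protein phosphorylated by the kinase downstream of mTORC1, had 455 and 489 CPM in fl/fl and 1123 and 951 CPM in IEC-KO in Paneth cells. It rose by 1.14 (SE 0.097, edgeR adjusted p = 5.04e-09) and lay above the sum at 0.31 (SE 0.081, edgeR adjusted p = 0.00146), whereas in other cells it had 0.090 (SE 0.059, edgeR adjusted p = 0.191) against the sum. Rpl30 was above the sum in both classes, at 0.30 (SE 0.071, edgeR adjusted p = 7.57e-04) and 0.17 (SE 0.054, edgeR adjusted p = 0.0140). Rpl17 was above it in Paneth cells, at 0.26 (SE 0.078, edgeR adjusted p = 0.00540).

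The bases around the annotated start are shown for 4 of the genes above and 4 of those below the sum in Paneth cells, because TOP mRNAs are defined by the pyrimidines at their start. Each line gives 10 bases before and 20 bases from the start site on the transcript's strand, from RefSeq on GRCm38.p6, and capitals mark the longest run of C followed by 4 or more C or T that begins within 10 bases of the start.
Rpl12 (chr2:32961702-32961731, plus strand): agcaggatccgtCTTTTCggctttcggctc
Rps24 (chr14:24490668-24490697, plus strand): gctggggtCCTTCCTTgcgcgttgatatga
Rps27 (chr3:90213629-90213658, minus strand): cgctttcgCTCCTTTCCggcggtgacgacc
Rps6 (chr4:86857348-86857377, minus strand): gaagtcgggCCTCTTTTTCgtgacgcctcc
Rpl7l1 (chr17:46782637-46782666, minus strand): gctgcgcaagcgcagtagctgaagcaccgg
Rps27l (chr9:66946076-66946105, plus strand): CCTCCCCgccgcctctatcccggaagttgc
Rpl11 (chr4:136053374-136053403, minus strand): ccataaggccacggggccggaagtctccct
Rps2 (chr17:24720053-24720082, plus strand): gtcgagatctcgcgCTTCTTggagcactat
At the starts shown, such a run was present for Rpl12, Rps24, Rps27 and Rps6 above the sum and for Rps27l and Rps2 below it. Rps24 and Rps27l each had a second annotated start, not shown, without a run. No run began within 10 bases of the start of Rpl7l1 or Rpl11, while the Rpl11 window holds one farther downstream. The promoter table matched 65 members with 77 start sites, and 54.5% of these start sites held the run, against 29.7% of 32851 start sites of all genes. The share was 55.3% for large and 53.3% for small subunit genes. Of the members above the sum in Paneth cells with a window, 10 of 12 held a run at 1 or more of their starts, of those below 9 of 15, and of those without a call 18 of 35. Annotated starts can lie some bases from the start used in these cells, so a missing run says only that none begins within those 10 bases.

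The paralogs whose symbols end in l or l1 were set beside the genes they are named after. Rps27l (ENSMUSG00000036781, chromosome 9, 66946086 to 66949516, plus strand) encodes a near-relative of Rps27 and is a known p53 target. It had 461 and 466 CPM in fl/fl and 578 and 532 CPM in IEC-KO in Paneth cells and rose by 0.26 (SE 0.084, edgeR adjusted p = 0.0181), below the sum at -0.56 (SE 0.073, edgeR adjusted p = 1.10e-06). Rps27 (ENSMUSG00000090733, chromosome 3, 90212522 to 90213651, minus strand) had 797 and 738 CPM in fl/fl and 1560.0 and 1983 CPM in IEC-KO and rose by 1.21 (SE 0.11, edgeR adjusted p = 1.57e-08), above the sum at 0.39 (SE 0.11, edgeR adjusted p = 0.00231). In other cells Rps27l had 975 and 999.6 CPM in fl/fl and 1162 and 1135 CPM in IEC-KO and lay below the sum at -0.19 (SE 0.054, edgeR adjusted p = 0.00653), while Rps27 had 3222 and 3158 CPM in fl/fl and 4455 and 5943 CPM in IEC-KO and lay above it at 0.29 (SE 0.10, edgeR adjusted p = 0.0241). The direction of both genes against the sum was thus opposite in each class. Rps27rt, an intronless gene (ENSMUSG00000050621, chromosome 9, 114982366 to 114982739, minus strand), had 60.1 and 59.8 CPM in fl/fl and 102 and 176 CPM in IEC-KO in Paneth and 174 and 201 CPM in fl/fl and 245 and 525 CPM in IEC-KO in other cells. Its values against the sum were 0.41 (SE 0.15, edgeR adjusted p = 0.0186) and 0.63 (SE 0.24, edgeR adjusted p = 0.0318), and they fell to -0.077 and -0.040 without IEC-KO 2, so its place above the sum rested on that library.

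The last 90 coding bases of these genes are shown since 3′ reads must tell such copies apart by sequence near the mRNA end. They were read from the spliced coding sequence on GRCm38, 5′ to 3′, and capitals mark bases that differ from the parent gene, which is Rps27 for the first group and Rpl36a for the second.
Rps27: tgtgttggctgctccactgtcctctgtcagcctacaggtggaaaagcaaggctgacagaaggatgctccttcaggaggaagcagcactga
Rps27rt: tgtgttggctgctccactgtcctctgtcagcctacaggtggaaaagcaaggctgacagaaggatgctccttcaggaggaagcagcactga
Rps27l: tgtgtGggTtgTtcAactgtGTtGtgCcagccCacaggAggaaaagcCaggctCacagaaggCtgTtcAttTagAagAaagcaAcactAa
Rpl36a: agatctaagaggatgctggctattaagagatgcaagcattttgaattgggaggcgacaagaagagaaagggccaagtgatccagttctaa
Rpl36al: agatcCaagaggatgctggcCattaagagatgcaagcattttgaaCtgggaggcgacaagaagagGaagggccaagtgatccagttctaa
Over the whole coding sequence Rps27rt differed from Rps27 at 0 of 255 bases, so reads in the coding part cannot be assigned to either gene and both values are uncertain. Rps27l differed from Rps27 at 61 of 255 bases (76.1% identity). Rpl36al differed from Rpl36a at 39 of 321 bases (87.9% identity), and 4 of these lie in the stretch shown. Ribosomal protein genes in general have many processed pseudogenes, and counts of single members can hold or lack reads that such copies share.

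Rpl36al (ENSMUSG00000049751, chromosome 12, 69182731 to 69184083, minus strand) was below the sum in Paneth cells, as Rps27l was, and was not called against it in other cells. It had 419 and 433 CPM in fl/fl and 565 and 543 CPM in IEC-KO in Paneth cells, a rise of 0.38 (SE 0.083, edgeR adjusted p = 8.72e-04) and a value against the sum of -0.44 (SE 0.072, edgeR adjusted p = 1.68e-05). The X-linked parent Rpl36a had 344 and 338 CPM in fl/fl and 616 and 635 CPM in IEC-KO, a rise of 0.87 (SE 0.083, edgeR adjusted p = 2.34e-08), and was not called against the sum, at 0.055 (SE 0.074, edgeR adjusted p = 0.485). In other cells Rpl36al had 1253 and 1262 CPM in fl/fl and 1657 and 1546 CPM in IEC-KO and a value of -0.065 (SE 0.056, edgeR adjusted p = 0.322) against the sum. Rpl22l1, whose protein can replace Rpl22 in the large subunit, rose by 0.61 (SE 0.074, edgeR adjusted p = 7.36e-07) in Paneth cells and was below the sum in Paneth and other cells at -0.21 (SE 0.066, edgeR adjusted p = 0.00736) and -0.25 (SE 0.054, edgeR adjusted p = 0.00129). Rpl22 had -0.026 (SE 0.068, edgeR adjusted p = 0.718) and -0.068 (SE 0.053, edgeR adjusted p = 0.279) against the sum. Rpl7, the parent of Rpl7l1, rose by 0.66 (SE 0.088, edgeR adjusted p = 3.35e-06) and was slightly below the sum at -0.16 (SE 0.074, edgeR adjusted p = 0.0469). Rpl3l, Rpl10l and Rpl39l, paralogs known from muscle and testis, were at or near 0. Of the parent genes of these 3, Rpl10 rose by 1.02 (SE 0.096, edgeR adjusted p = 2.33e-08) and Rpl39 by 1.00 (SE 0.096, edgeR adjusted p = 2.85e-08) in Paneth cells.

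Of the stalk proteins, which recruit translation factors to the large subunit, Rplp0 was called against the sum in both classes and Rplp1 and Rplp2 in neither. Rplp0, the stalk base, had 853 and 818 CPM in fl/fl and 1311 and 1133 CPM in IEC-KO in Paneth cells, rose by 0.55 (SE 0.098, edgeR adjusted p = 1.13e-04) and lay below the sum at -0.27 (SE 0.083, edgeR adjusted p = 0.00508). Rplp1 and Rplp2, which bind to it as dimers, rose by 0.89 (SE 0.096, edgeR adjusted p = 1.61e-07) and 0.79 (SE 0.090, edgeR adjusted p = 3.47e-07) and were not called against the sum, at 0.073 (SE 0.079, edgeR adjusted p = 0.389) and -0.028 (SE 0.076, edgeR adjusted p = 0.729). In other cells Rplp0 was again below the sum, at -0.22 (SE 0.057, edgeR adjusted p = 0.00456), and Rplp1 and Rplp2 gave -0.019 (SE 0.056, edgeR adjusted p = 0.785) and -0.12 (SE 0.055, edgeR adjusted p = 0.0817). Among small subunit proteins with further known roles, Rpsa, a laminin receptor precursor, had 501 and 518 CPM in fl/fl and 819.5 and 746 CPM in IEC-KO and lay below the sum at -0.20 (SE 0.074, edgeR adjusted p = 0.0179). Rps3, which also acts in DNA repair, had 508 and 526 CPM in fl/fl and 988 and 865 CPM in IEC-KO and was not called against the sum, at 0.019 (SE 0.077, edgeR adjusted p = 0.819). Rpl10, which is added late in large subunit assembly, had 594 and 582 CPM in fl/fl and 1281 and 1104 CPM in IEC-KO and lay above the sum at 0.20 (SE 0.081, edgeR adjusted p = 0.0303).

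The members on the X chromosome were Rpl10, Rpl36a, Rpl39 and Rps4x, for which the difference in Xist and Y-linked UMIs between genotypes stands beside the values. In Paneth cells Rps4x had 609 and 631 CPM in fl/fl and 1109 and 977 CPM in IEC-KO, a rise of 0.75 (SE 0.094, edgeR adjusted p = 1.27e-06), and Rpl39 466 and 429 CPM in fl/fl and 821 and 971 CPM in IEC-KO. Against the sum Rps4x gave -0.071 (SE 0.078, edgeR adjusted p = 0.393) and Rpl39 0.18 (SE 0.092, edgeR adjusted p = 0.0704). Their fold changes lay inside the range of autosomal members, and no test by sex was made.

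The IEC-KO libraries differed from each other in the shortest members. Of the 7 members with an annotated transcript under 450 bases, Rps21, Rps27, Rps27rt, Rps28, Rps29, Rpl36 and Rpl38, all 7 took a larger share of ribosomal protein UMIs in IEC-KO 2 than in IEC-KO 1, in Paneth and in other cells. The median log2 ratio of shares was 0.37 in Paneth and 0.40 in other cells, with ranges of 0.25 to 0.84 and 0.25 to 1.12. Of members between 450 and 900 bases, 15 of 46 were positive in Paneth cells, with a median of -0.053. Of those with 900 bases or more, 4 of 30 were positive, with a median of -0.068. Between the fl/fl libraries the short members gave a median of -0.16 in Paneth and -0.037 in other cells. Rps28, chosen after its values were seen, had 441 and 427 CPM in fl/fl and 761 and 1146 CPM in IEC-KO in Paneth cells, and its value against the sum of 0.32 (SE 0.13, edgeR adjusted p = 0.0282) ranged from -0.037 to 0.61 without single libraries. Rps27 ranged from 0.17 to 0.58 in Paneth and 0.057 to 0.50 in other cells. The values of the short members against the sum thus moved with IEC-KO 2, which was also the deeper IEC-KO library, and the part of depth or transcript length in it was not tested.

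**Figure D4:**
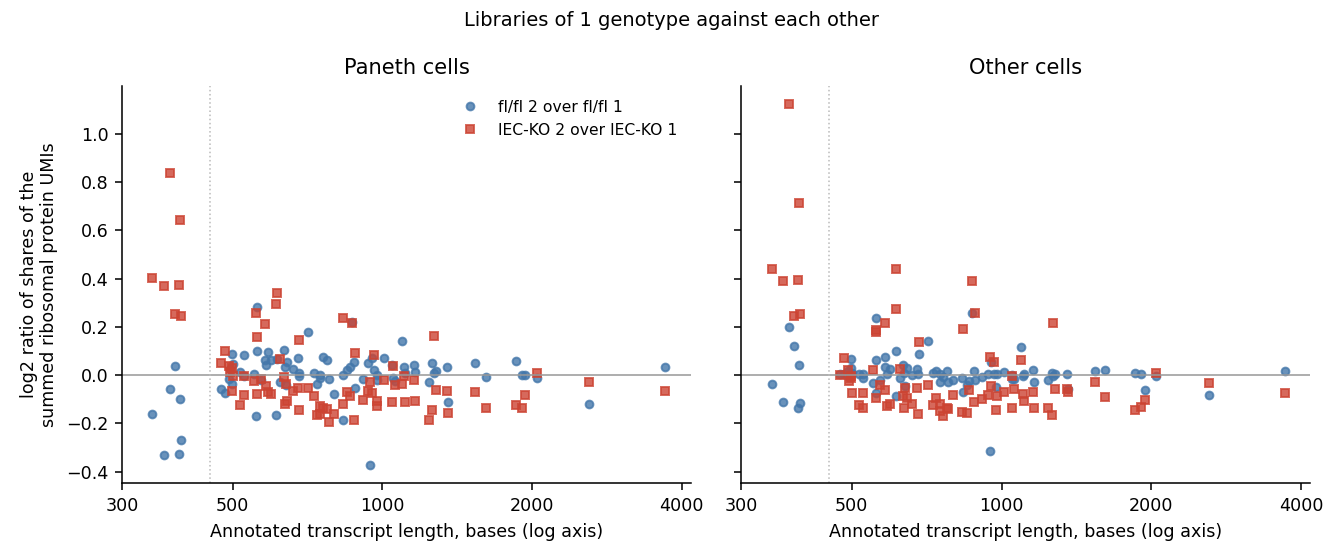
Log2 ratio of each member's share of ribosomal protein UMIs in replicate 2 over replicate 1 of a genotype, against the length of its annotated transcript in bases (log axis), for Paneth and other cells. The 7 members under 450 bases lie above 0 between the IEC-KO libraries in both classes, and most longer members lie near or below 0.

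Ribosomal proteins whose symbols the rule did not reach were read from a separate list. Fau, which encodes a small subunit protein fused to a ubiquitin-like one, had 551 and 591 CPM in fl/fl and 1114 and 1063 CPM in IEC-KO in Paneth cells, a rise of 0.93 (SE 0.091, edgeR adjusted p = 3.82e-08), and rose by 0.49 (SE 0.066, edgeR adjusted p = 8.64e-06) in other cells. Gnb2l1, the RACK1 scaffold of the small subunit, rose by 0.58 (SE 0.081, edgeR adjusted p = 5.51e-06) in Paneth and 0.36 (SE 0.067, edgeR adjusted p = 3.12e-04) in other cells.

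Of other mRNAs of the translation machinery, more were called higher than lower after TMM scaling in both classes. Of 17 tested TOP mRNAs that encode no ribosomal protein, 13 were higher and 1 lower in Paneth cells, with a median of 0.42, against 20.2% higher and 19.8% lower of all genes. In other cells 10 were higher and 1 lower, with a median of 0.24, against 17.0% and 16.7%. Tpt1, the translationally controlled tumour protein, had 347 and 354 CPM in fl/fl and 803 and 709 CPM in IEC-KO in Paneth cells and rose by 1.11 (SE 0.089, edgeR adjusted p = 1.82e-09). Eef1a1, the elongation factor that brings aminoacyl-tRNA, rose by 0.97 (SE 0.091, edgeR adjusted p = 2.23e-08) in Paneth and 0.52 (SE 0.066, edgeR adjusted p = 4.86e-06) in other cells. Hnrnpa1, a splicing regulator, fell in both, by 0.62 (SE 0.070, edgeR adjusted p = 2.81e-07) and 0.75 (SE 0.064, edgeR adjusted p = 1.99e-08). Eef1d was at 0.051 (SE 0.071, edgeR adjusted p = 0.608) in Paneth cells. Of 54 factors that build ribosomes in the nucleolus, 38 were higher and 1 lower in Paneth cells, with a median of 0.42, against the same 20.2% and 19.8%. In other cells 15 were higher and 1 lower, with a median of 0.13, against 17.0% and 16.7% of all genes. The summed biogenesis factors took 13.0 and 12.6 in fl/fl and 21.5 and 21.8 in IEC-KO of 10000 UMIs outside the defensins in Paneth cells. In other cells their sum was 33.1 and 33.0 in fl/fl and 32.2 and 31.8 in IEC-KO, slightly lower in IEC-KO. Ddx21, a nucleolar helicase, had 11.8 and 12.6 CPM in fl/fl and 22.9 and 26.5 CPM in IEC-KO in Paneth cells and rose by 1.03 (SE 0.078, edgeR adjusted p = 8.23e-10), and by 0.54 (SE 0.088, edgeR adjusted p = 7.45e-05) in other cells. Nop14 rose by 0.98 (SE 0.091, edgeR adjusted p = 1.69e-08) in Paneth cells. Bop1 fell by 0.38 (SE 0.086, edgeR adjusted p = 0.00113), while Wdr12, its partner in large subunit maturation, was at -0.25 (SE 0.11, edgeR adjusted p = 0.0902). In other cells Dkc1, the pseudouridine synthase of small nucleolar particles, fell by 0.35 (SE 0.076, edgeR adjusted p = 0.00130), and Rrp12 rose by 0.67 (SE 0.14, edgeR adjusted p = 8.55e-04).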

How the data were processed

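The authors deposited raw UMI counts, 1 table of genes by called cell barcodes for each library, with 27998 genes in each. Per the labels, Cell Ranger 2.1.1 and mm10 were used in the processing. The counts were used as they are. Every barcode had at least 200 genes, so this minimum left out none of the 26498 cells, and doublets were kept.

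UMIs were summed per library and class. The sums were tested in edgeR 4.0.16 under R 4.3.3 by quasi-likelihood with TMM scaling and filterByExpr, and p-values were adjusted over all genes tested (Benjamini-Hochberg, threshold 0.05). Each SE is the log2 fold change divided by the square root of F. Departures from the common shift were tested with the summed UMIs of 86 members as library size and no TMM. The comparison of classes used 8 sums with library as a block. Other cells were clustered with scanpy 1.11.5 (counts scaled to 10000, 2000 variable genes, 30 components, 20 neighbours, Leiden resolution 1, without ribosomal protein and Defa genes). Clusters were named from markers with a UMI in at least 25% of their cells and a mean 1.5 times that of the rest. The clustering reported for goblet-like cells also left out the 841 genes of the study's lists that the tables hold, and was chosen after the first had been seen. These lists hold 82 of the members.

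Members, lists and tests were chosen with earlier results of these data known. Named genes were those 0.5 or more (log2) from the sum and past the threshold, the 3 largest and 3 smallest changes of each subunit in Paneth cells, paralogs with their parent genes, and members with a special role. Of the TOP and biogenesis lists, the 2 largest and 2 smallest changes were named. Other members named, among them Rpl6l, Rpl7a, Rpl8, Rpl15, Rpl41, Rps14, Rps15 and the short genes, were chosen after their values were seen. Some genes that these rules name are not reported here. Gene positions come from GENCODE M21 on GRCm38, matched through the gene ID, and start sequences from RefSeq. The fits were tested on simulated data. The alternatives were library size only, TMM without Defa and ribosomal protein genes, Defa genes left out, a minimum of 10 counts in each library or no filter, DESeq2 1.42.0, the replicate number as a block, class limits of 40% and 10%, cells thinned to 2000 UMIs, cells of 10000 to 30000 UMIs, cells nearest to simulated doublets left out, resolution 0.5, and each library left out in turn.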

Additional observations from a re-analysis of the deposited data

Results flagged for a closer look

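The genotype difference was larger in Paneth than in other cells for 79 members by edgeR's test of the difference itself, with both sums of each library in 1 model. Of all genes tested 11.0% were called larger and 11.3% smaller. The log2 difference between the classes was 0.84 for Rps24, 0.67 for Rpl12 and 0.55 for Rps2. The median was 0.40 for large and 0.49 for small subunit members, so the value of Rps2 was near that of its subunit. For Rps24 and Rpl12 the rise in Paneth cells exceeded a smaller rise in other cells. For Rps2 a rise in Paneth cells stood beside a fall in other cells.

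Cells with 20% to under 30% of their UMIs on defensin genes entered no comparison. In them ribosomal proteins took at least 16.8% of UMIs in IEC-KO and at most 12.1% in fl/fl, so the genotypes did not overlap. These cells numbered 120 and 89 in fl/fl and 1305 and 1218 in IEC-KO.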

How the results depend on the processing

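The members' rise in Paneth cells (83 called) and in other cells (77), the rise in goblet-like cells of the second clustering (75) and the larger rise in Paneth than in other cells (79) stayed within 1.5 times their counts under all alternatives that were run. Without single libraries they ranged from 80 to 83, 55 to 80, 53 to 75 and 74 to 79. The 53 goblet-like rises of the first clustering became 2 with library size only, 2 with at least 10 counts in every library, 8 with the replicate block, and 0 to 71 without single libraries. Counts in TA-like cells and enterocyte-like cells were less stable. The 26 TA-like rises became 4 with library size only, 9 with DESeq2, 12 with class limits of 40% and 10%, 7 in cells thinned to 2000 UMIs, 11 without cells nearest to simulated doublets, and 1 to 55 without single libraries. The 1 member lower in TA-like cells, and the 1 lower in other cells, ranged from 0 to 1. The 1 enterocyte-like rise became 6 with no filter on low counts, 0 with DESeq2, 5 with the replicate block, 2 with the other class limits, 0 after thinning, 27 in cells of 10000 to 30000 UMIs, 0 without likely doublets, and 0 to 6 without single libraries. In place of 0 falls, 1 was called in enterocyte-like cells with Defa genes left out, no filter, the replicate block, the other class limits and thinning. Relative to the summed ribosomal protein UMIs, the 16 members above and 20 below in Paneth cells became 7 and 10 in cells of 10000 to 30000 UMIs and ranged from 11 to 18 and 11 to 23 without single libraries. In other cells the 6 above became 10 with no filter and ranged from 2 to 20, and the 11 below ranged from 7 to 26. Rps27rt, above the sum with all libraries, lay below it without IEC-KO replicate 2, at -0.077 in Paneth and -0.040 in other cells, and at up to 0.76 and 1.08 without another library. The causes were not tested.

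The small minus large subunit median in Paneth cells, 0.046 on the log2 scale, ranged from 0.0052 to 0.062 without single libraries. In other cells it was 0.0096, became 0.056 in cells of 10000 to 30000 UMIs, and ranged from -0.0073 (without IEC-KO replicate 1) to 0.024. For the difference between the classes it was 0.097, became 0.043 in cells of that depth, and ranged from 0.048 to 0.11. The ribosomal protein share was 6.76 percentage points higher in IEC-KO Paneth cells. This became 10.1 outside Defa genes, 11.4 outside these and the other Paneth markers (added after the data were seen), 6.58 and 4.84 at 30% to 40% and 40% to 50% defensin UMIs, 5.45 and 5.29 at 20000 to 30000 and 30000 to 50000 UMIs, 4.84 with the other class limits, 7.29 after thinning, 6.28 at 10000 to 30000 UMIs, and 6.70 to 6.82 without single libraries. In other cells 3.87 points became 4.20 outside Defa genes, 4.36 outside these and Paneth markers, 3.10, 6.21 and 5.45 at defensin shares of 0 to 5%, 5 to 10% and 10 to 20%, 4.68 at 5000 to 10000 UMIs, 4.07 after thinning, 3.50 at 10000 to 30000 UMIs, and 3.75 to 3.99 without single libraries.

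The replicate block left 83 members higher in Paneth and 77 in other cells. Same-numbered libraries did not deviate together over all genes (correlation of deviations 0.0087 in Paneth and 0.055 in other cells). With 2 libraries per genotype this cannot decide whether the numbers pair the libraries, and the labels name no pairing. For values of single named genes, 1128 of 1224 alternative values kept direction and side of the threshold, 80 lost the call, 14 gained it and 2 were reversed. With 2 libraries per genotype, small departures from the common shift were limited by the spread between libraries.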
